A study of Mus musculus with 9 samples.

Results

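The 9 genes described here belong to transforming growth factor beta (TGF-beta) signalling and were followed across mouse heart libraries: the ligand genes Tgfb1, Tgfb2 and Tgfb3, the receptor genes Tgfbr1 and Tgfbr2, the signal transducer Smad3, and the inhibitors Smad6, Smad7 and Bambi. These 9 of 55401 genes were chosen by name, each matched 1 row of the table, and all 9 had enough counts to be tested. Their Ensembl identifiers are ENSMUSG00000002603 (Tgfb1), ENSMUSG00000039239 (Tgfb2), ENSMUSG00000021253 (Tgfb3), ENSMUSG00000007613 (Tgfbr1), ENSMUSG00000032440 (Tgfbr2), ENSMUSG00000032402 (Smad3), ENSMUSG00000036867 (Smad6), ENSMUSG00000025880 (Smad7) and ENSMUSG00000024232 (Bambi). The RNA, labelled as heart and selected for poly(A) tails, came from the inbred strain C57BL/6 and gave 9 libraries, 3 for each treatment label. The extraction protocol speaks of adipose RNA instead, which conflicts with the labelled source. The Kmo_AngII libraries carry the description Kmo+Ang II and the treatment Ang II (the blood-pressure hormone angiotensin II), and the meaning of Kmo is not stated. The AngII libraries carry Ang II alone, and the Ctrl libraries carry PBS, a salt buffer. The sources used here do not give dose, duration, age, sex or any genetic change. The sample titles begin with KKA, WA or WC, also unexplained, and these letters cross the treatment labels. KKA stands on the Kmo_AngII libraries. WA stands on AngII replicate 3 and Ctrl replicates 2 and 3, and WC on AngII replicates 1 and 2 and Ctrl replicate 1. Treatment labels or titles may have been exchanged in some libraries, which the sources used here do not settle, so every difference below holds for the labels or titles as given.

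TGF-beta ligands are secreted in a latent complex and, once released, bind the type II receptor TGFBR2, which activates the type I receptor TGFBR1. The type I receptor then phosphorylates SMAD3 and its relative SMAD2, which enter the nucleus with SMAD4 and switch on target genes. SMAD7 and SMAD6 are inhibitory Smads that act at the receptors, SMAD6 mostly on the bone morphogenetic protein branch, and BAMBI is a membrane pseudoreceptor without a kinase domain. In the heart the pathway is known for activating fibroblasts and matrix deposition, and angiotensin II is known to raise Tgfb1 expression in cardiac cells.

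Libraries held 56827533 to 73194268 counts each, of which mitochondrially encoded genes took 30.3% to 55.5%. Levels are given as CPM, counts scaled to TMM-adjusted library totals, and are not corrected for gene length unless stated. The first principal component (30.4% of the variance) put the WA libraries and Kmo_AngII replicate 1 on one side and the WC libraries and Kmo_AngII replicates 2 and 3 on the other. Heart muscle markers (Myh6, Tnnt2, Tnni3, Actc1 and Ttn) summed to between 15790 and 35630 CPM in every library. Kmo_AngII replicate 3 stood apart. Its 6 fibroblast markers summed to 1558 CPM (at most 674.5 in the other libraries) and its 6 epicardial markers to 86.1 CPM (at most 18.5). Its 4 adipocyte markers summed to 28.7 CPM (at most 4.82) and its 5 atrial muscle markers to 2285 CPM (at most 1226). It also had the lowest heart muscle sum (15790 CPM) and the highest mitochondrial share (55.5%). In bulk tissue fewer cells of a type and less RNA per cell cannot be told apart. No label states that replicates are different animals, and the p-values therefore reflect spread among these 9 samples that could be technical.

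The lowest raw count of any of the 9 genes in any library was 274 (Bambi in AngII replicate 2). Per kilobase of exon in the GENCODE M21 annotation, the median level over the 9 libraries was highest for Tgfb1 (4.06 CPM per kb), Tgfb3 (3.93) and Tgfbr2 (3.78). Smad7 (3.24), Smad3 (2.76), Smad6 (2.37), Tgfbr1 (2.17), Tgfb2 (1.98) and Bambi (1.52) followed, and the ranges of every pair of neighbours in this order overlapped. Tgfb1 stood at a median of 7.96 CPM per kb when its longest transcript was used as the length instead. Bambi had the widest range between libraries, 4.55-fold, followed by Tgfb2 at 3.41-fold, while Tgfb3 (1.94-fold) and Tgfbr2 (2.03-fold) varied least. The standard deviation of log2 CPM over the 9 libraries was larger for Bambi than for 77.1% of all tested genes, and for Tgfbr2 it was larger than for 22.7%.

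**Figure D1:**
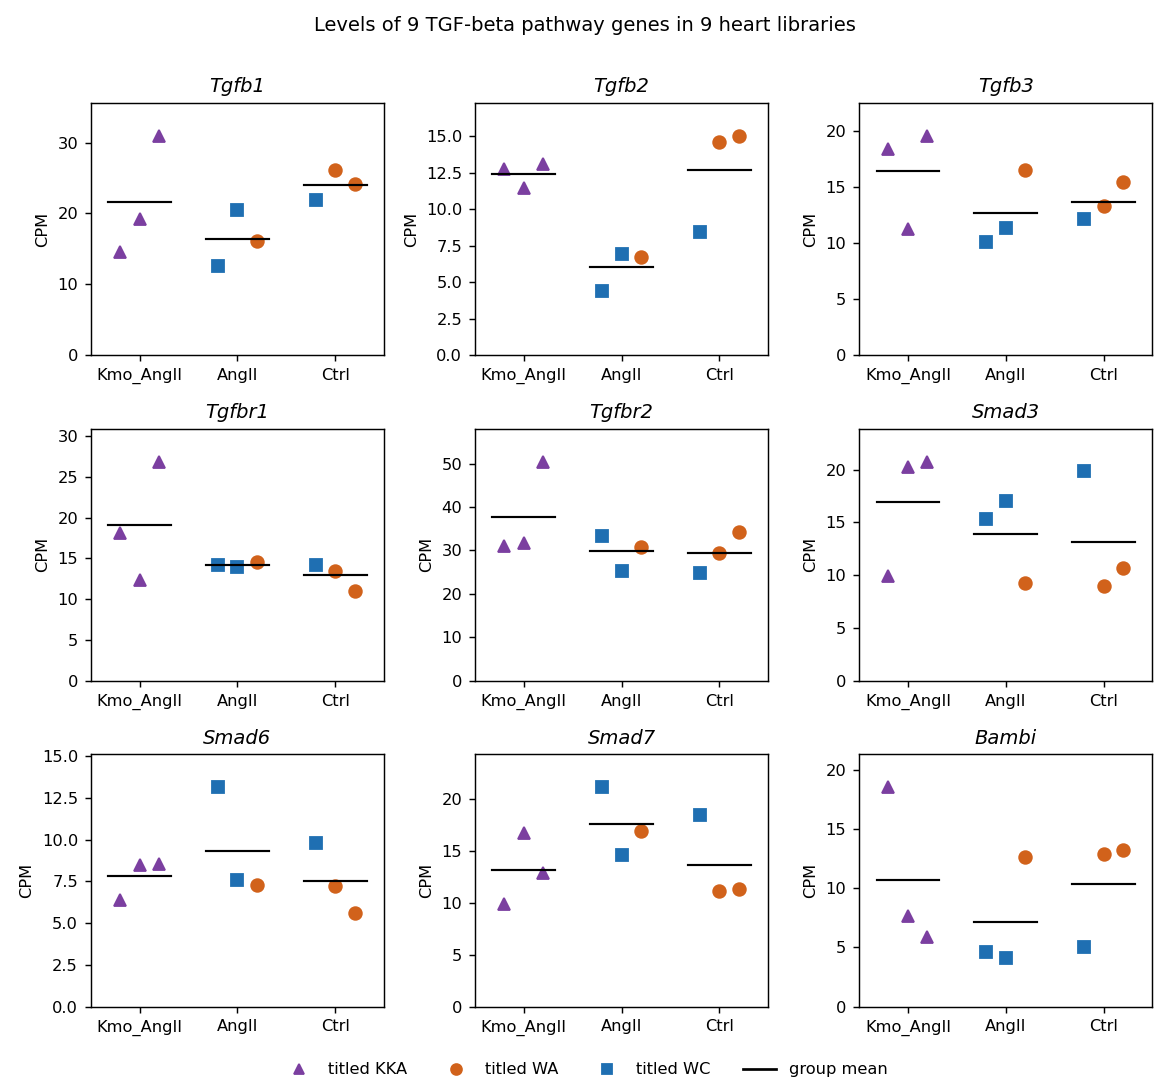
Level of each of the 9 genes (CPM, vertical axis from 0) in every library, with libraries grouped by treatment label along the horizontal axis; colour and shape give the title letters and a line marks the group mean (n = 3). Bambi and Smad3 separate by title letters within the AngII and Ctrl groups, whereas all 3 AngII libraries lie at or below 6.91 CPM for Tgfb2.

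With all 9 libraries in the fit, edgeR called 0 of the 9 members in each of the 6 comparisons, as it called 0% of the 19091 genes tested in each. For AngII minus Ctrl, 1 member (Tgfb2) had an unadjusted p under 0.05, and DESeq2 and limma-voom called 0 members. For WA minus WC, 3443 genes had an unadjusted p under 0.05, and DESeq2 called 514 genes (2.69%), among them Bambi. In the fit of only the 6 libraries titled WA or WC, edgeR called 13.3% of 18111 genes and 2 of the 9 members, Bambi higher and Smad3 lower in WA. With 9 genes, 2 calls are close to that background. Comparisons share libraries, since the KKA and Kmo_AngII libraries are the same and each AngII, Ctrl, WA and WC library serves in several.

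Genes whose groups did not overlap were counted as well. For AngII minus Ctrl this held for 2 of 9 members, both lower, beside 12.2% of all genes in either direction (6.44% higher, 5.74% lower). For Kmo_AngII minus AngII it held for 1 member, higher, beside 6.17% (3.22% higher, 2.94% lower). For Kmo_AngII minus Ctrl it held for 0, beside 6.77% (4.13% higher, 2.64% lower), and for KKA minus WA for 0, beside 8.18% (5.66% higher, 2.52% lower). For KKA minus WC it held for 2, both higher, beside 7.59% (3.66% higher, 3.93% lower). For WA minus WC it held for 4 members, 2 in each direction, beside 33.6% of the genes tested with all 9 libraries (16.5% higher, 17.2% lower) and 34.7% of those tested with 6. In the 3 comparisons of treatment labels, 1003 (AngII minus Ctrl), 412 (Kmo_AngII minus AngII) and 533 (Kmo_AngII minus Ctrl) genes had an unadjusted p under 0.05, and DESeq2 called 8, 3 and 9 genes. For KKA minus WA and KKA minus WC these were 1345 and 671 genes by unadjusted p, and 91 and 25 by DESeq2.

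The start regions of 6 of the 9 genes were found in the RefSeq table of build GRCm38.p6, as windows of 300 bases that hold 250 bases before the gene's start and 50 after it. The processing notes name another build for the counts, so these windows give sequence only. The windows of 3 genes are shown: Tgfb2, for its difference between the AngII and Ctrl labels, Smad3, which was called between WA and WC, and Smad6, a feedback inhibitor that lay on the same side as Smad3. Capitals mark the Smad motif CAGAC, on either strand, and the palindromic Smad element GTCTAGAC.
Tgfb2 at chr1:186705940-186706239, minus strand: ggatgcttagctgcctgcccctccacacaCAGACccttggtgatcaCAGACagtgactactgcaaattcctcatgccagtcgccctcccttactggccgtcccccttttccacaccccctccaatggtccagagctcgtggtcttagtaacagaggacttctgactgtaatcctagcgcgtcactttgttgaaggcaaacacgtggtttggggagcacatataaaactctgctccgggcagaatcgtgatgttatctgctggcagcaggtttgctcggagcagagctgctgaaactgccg
Smad3 at chr9:63757945-63758244, minus strand: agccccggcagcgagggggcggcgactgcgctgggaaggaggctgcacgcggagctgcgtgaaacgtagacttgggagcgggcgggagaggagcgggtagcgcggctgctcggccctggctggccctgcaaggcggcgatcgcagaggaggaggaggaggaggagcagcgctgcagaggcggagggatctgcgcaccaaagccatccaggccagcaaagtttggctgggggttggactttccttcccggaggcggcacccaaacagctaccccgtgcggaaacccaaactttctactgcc
Smad6 at chr9:64022010-64022309, minus strand: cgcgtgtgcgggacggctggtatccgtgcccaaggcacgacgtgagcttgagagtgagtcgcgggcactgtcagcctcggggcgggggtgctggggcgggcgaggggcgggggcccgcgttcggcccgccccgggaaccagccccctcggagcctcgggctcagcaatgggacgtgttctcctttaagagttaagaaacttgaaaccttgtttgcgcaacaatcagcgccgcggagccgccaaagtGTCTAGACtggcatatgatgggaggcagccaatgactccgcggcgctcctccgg
The Smad6 window held 1 GTCTAGAC, starting at base 247, so that it spans the gene's start. It was found in 0.213% of 32851 windows of this length, and in no other window of the 6 members that could be searched. Tgfb3, Smad7 and Bambi had no window there, so whether they hold the motif is not known here. The Tgfb2 window held 2 CAGAC, at bases 30 and 47, and a TATAAA at base 220, while 49.6% of all windows held CAGAC and 13.6% held TATAAA. The Smad3 window held neither Smad motif and had 2 matches to the GC box GGGCGG, found in 35.7% of windows, and the Tgfb1 window had 6. Each motif was counted on both strands and by itself, so a base may belong to matches of different motifs.

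Among the ligands, Tgfb2, whose product is one of the 3 TGF-beta isoforms and is needed for heart development, was the member with the largest difference between the AngII and Ctrl labels. Tgfb2 had 4.40, 6.91 and 6.70 CPM in the AngII libraries (replicates 1 to 3), against 8.42, 14.6 and 15.0 CPM in the Ctrl libraries. Every AngII library lay below every Ctrl library, which held for 5.74% of all genes in this direction. The mitochondrial share separated the same groups, at 30.3% to 39.5% in AngII, against 43.4% to 52.6% in Ctrl, as did the TMM factor, at 1.18 to 1.36 in AngII, against 0.681 to 0.883 in Ctrl. Their part in the AngII minus Ctrl values was not tested. The order was also present within the title letters: AngII replicate 3 (6.70 CPM) lay below both Ctrl libraries titled WA, and AngII replicates 1 and 2 lay below the Ctrl library titled WC (8.42 CPM). The log2 difference of Tgfb2 was -1.08 ± 0.271 (SE; edgeR adjusted p = 0.8905), and it stayed negative in all 18 alternatives, from -1.30 to -0.41. With the title letters as a covariate it was -0.86 (edgeR adjusted p = 0.9995). In the Kmo_AngII libraries Tgfb2 had 12.8, 11.5 and 13.1 CPM, all above the 3 AngII libraries, and the log2 difference for Kmo_AngII minus AngII was 1.05 ± 0.27 (edgeR adjusted p = 0.9998). That separation upward was found for 3.22% of all genes, and it uses the same AngII libraries as the comparison with Ctrl. Against Ctrl the Kmo_AngII mean was 12.4 ± 0.868 CPM and the Ctrl mean 12.7 ± 3.69 CPM (SD, n = 3 each). Library size as the only scaling moved the AngII minus Ctrl difference to -0.41, where the median of all genes was 0.67, so Tgfb2 then lay 1.09 below that median on the log2 scale (-1.09).

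Tgfb1, the isoform best known from fibrosis, had 12.7, 20.5 and 16.1 CPM in the AngII libraries, against 21.9, 26.2 and 24.1 CPM in Ctrl. The AngII libraries again lay below every Ctrl library, by a narrow gap between 20.5 and 21.9 CPM. The log2 difference of Tgfb1 was -0.55 ± 0.29 (SE; edgeR adjusted p = 0.89), and it was 0.097 when scaled by library size alone, which is -0.58 from the median of all genes. Kmo_AngII libraries had 14.5, 19.3 and 31.0 CPM of Tgfb1, and the highest value belonged to replicate 3, the library with the high fibroblast markers. Platelet markers, which mark another source of Tgfb1 RNA, were also highest there, at 31.5 CPM summed over 4 genes, against 4.77 to 22.5 in the other 8 libraries. The 6 macrophage markers were highest there too (198.1 CPM). Platelet markers and Tgfb1 did not go together elsewhere. AngII replicate 1 had the next highest platelet sum (22.5 CPM) and the lowest Tgfb1 level (12.7 CPM). Ctrl replicates 2 and 3 had the lowest sums (4.77 and 4.81 CPM), with 26.2 and 24.1 CPM of Tgfb1. The part of these cells in the Tgfb1 level was not tested.

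Tgfb3, which has a known role in palate closure, did not follow the treatment labels. It had 16.5, 13.3 and 15.4 CPM in the WA libraries (AngII replicate 3, Ctrl replicates 2 and 3), against 10.1, 11.3 and 12.1 CPM in the WC libraries (AngII replicates 1 and 2, Ctrl replicate 1). The WA libraries all lay above the WC libraries, as they did for 17.1% of genes in this direction. The Kmo_AngII libraries had 18.4, 11.2 and 19.5 CPM of Tgfb3, so that replicate 2 lay with WC and the other two above every WA library. The log2 difference for WA minus WC was 0.45 ± 0.17 (SE) in the 6 libraries (edgeR adjusted p = 0.105) and 0.43 ± 0.23 with all 9 (edgeR adjusted p = 0.331). Tgfb1 differed by 0.28 ± 0.24 (edgeR adjusted p = 0.473) and Tgfb2 by 0.89 ± 0.32 (edgeR adjusted p = 0.0933) in the 6 libraries, and by 0.27 ± 0.32 (0.672) and 0.88 ± 0.32 (0.232) with all 9. All 3 ligand genes had positive differences for WA minus WC, but none passed in either edgeR fit, and that of Tgfb1 was -0.063 when scaled by library size alone, where the median of all genes was -0.33 (Tgfb1 then lay at 0.26 to 0.27 relative to it). In the 6 libraries Tgfb2 passed in DESeq2 (adjusted p = 0.0396) and without AngII replicate 3 (edgeR adjusted p = 0.0116), the WA library with the low Tgfb2 level. Of all genes, 19% passed in that DESeq2 test and 15.9% in edgeR without AngII replicate 3. The ratio of Tgfb2 to Tgfb1 within a library, which does not depend on scaling, as counts, was 0.348, 0.338 and 0.417 in AngII, against 0.384, 0.557 and 0.623 in Ctrl. The groups overlapped in this ratio, since the Ctrl library titled WC lay below AngII replicate 3.

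Neither receptor gene passed edgeR's threshold in any comparison. Tgfbr1, the type I receptor that phosphorylates Smad3, had 14.2, 13.9 and 14.5 CPM in the AngII libraries, against 14.2, 13.5 and 11.1 CPM in Ctrl. Tgfbr2, the type II receptor that binds ligand first, had 33.3, 25.2 and 30.8 CPM in AngII, against 24.8, 29.3 and 34.3 CPM in Ctrl. Both pairs of groups overlapped. For WA minus WC the log2 differences were -0.10 ± 0.17 for Tgfbr1 (edgeR adjusted p = 0.747) and 0.19 ± 0.17 for Tgfbr2 (0.499) in the 6 libraries, and -0.11 ± 0.26 (0.84) and 0.18 ± 0.23 (0.705) with all 9, where scaling by library size alone gave -0.154 for Tgfbr2 (0.18 relative to the median of all genes). In Kmo_AngII, Tgfbr1 had 18.2, 12.4 and 26.9 CPM and Tgfbr2 had 30.9, 31.8 and 50.5 CPM. Replicate 3 held the highest value of all 9 libraries for both. Beside Ctrl, the log2 difference for Kmo_AngII was 0.57 ± 0.27 for Tgfbr1 and 0.36 ± 0.25 for Tgfbr2 (edgeR adjusted p = 0.998 for both), and these were 0.24 and 0.089 without Kmo_AngII replicate 3. The next smallest p in that comparison was that of Tgfb3 (0.27 ± 0.27, edgeR adjusted p = 0.998). For KKA minus WA the difference was 0.55 ± 0.26 for Tgfbr1 (edgeR adjusted p = 0.718) and 0.26 ± 0.23 for Tgfbr2 (0.779), and these were 0.23 and -0.0053 without Kmo_AngII replicate 3. Against AngII the Tgfbr1 difference of 0.43 ± 0.26 (edgeR adjusted p = 0.9998) was 0.10 without that library. The fibroblast markers of that library were 1558 CPM and its atrial markers 2285 CPM, and their part in the receptor levels was not tested.

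Smad3, which carries the signal from the activated receptor to DNA, followed the title letters. It had 9.23, 9.02 and 10.7 CPM in the WA libraries (AngII replicate 3, Ctrl replicates 2 and 3), against 15.3, 17.1 and 19.8 CPM in the WC libraries (AngII replicates 1 and 2, Ctrl replicate 1). The groups did not overlap, as was the case downward for 17.6% of genes. Smad3 fell in WA in the fit of the 6 libraries (log2 change -0.84 ± 0.17, SE; edgeR adjusted p = 0.0118). With all 9 libraries the difference was -0.85 ± 0.27 (edgeR adjusted p = 0.224). The call was lost without AngII replicate 2 (edgeR adjusted p = 0.0619) or Ctrl replicate 1 (0.0623) and with library size as the only scaling (0.149), where the difference itself was -1.13, or -0.81 relative to the median of all genes. Between the treatment labels, Smad3 averaged 13.9 ± 4.1 CPM in AngII and 13.2 ± 5.83 CPM in Ctrl (SD, n = 3 each), and each label holds libraries of both title letters. Among the KKA libraries, Kmo_AngII replicate 1 had 9.89 CPM, inside the WA range, whereas replicates 2 and 3 had 20.3 and 20.8 CPM, above all WC libraries. The log2 difference for KKA minus WA was 0.82 ± 0.27 (edgeR adjusted p = 0.681).

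Bambi, whose product resembles a type I receptor and blocks signalling, was higher in WA, where Smad3 was lower. It had 12.7, 12.9 and 13.2 CPM in the WA libraries, against 4.63, 4.07 and 5.03 CPM in the WC libraries, in the same order of libraries as for Smad3. The spread within each group was small beside the gap between them (12.9 ± 0.273 CPM in WA and 4.58 ± 0.481 CPM in WC, SD, n = 3 each). Bambi rose in WA by 1.51 ± 0.18 on the log2 scale in the 6 libraries (SE; edgeR adjusted p = 0.002), and 13 of the 14 alternatives kept the call, the exception being library size as the only scaling (1.2, edgeR adjusted p = 0.143). With all 9 libraries the difference was 1.5 ± 0.36 and did not pass (edgeR adjusted p = 0.224), and without Kmo_AngII replicate 1 that fit called Bambi (0.00681) and Smad3 (0.0171) among 7.98% of all genes. Among the KKA libraries, Kmo_AngII replicate 1 had 18.5 CPM, the highest of all 9, and replicates 2 and 3 had 7.69 and 5.92 CPM, between the WC and WA libraries. All KKA libraries lay above the WC libraries, with a log2 difference of 1.23 ± 0.36 (edgeR adjusted p = 0.995), which was 0.57 without Kmo_AngII replicate 1. For the same comparison Tgfb2 had 0.92 ± 0.32 and Tgfb3 0.55 ± 0.23 (edgeR adjusted p = 0.995 for both). Without Kmo_AngII replicate 1, KKA minus WA called Smad3 higher (1.09, edgeR adjusted p = 0.0122) and Bambi lower (-0.92, edgeR adjusted p = 0.0282), among 8.66% of genes; Bambi was named here after its values were seen.

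The ratio of Bambi to Smad3 within a library needs no scaling between libraries, and here it is a ratio of counts, not corrected for length. It was 1.37, 1.43 and 1.24 in the WA libraries, against 0.303, 0.239 and 0.254 in the WC libraries. In the KKA libraries it was 1.87 for Kmo_AngII replicate 1, and 0.379 and 0.285 for replicates 2 and 3. So 4 libraries had ratios of 1.24 to 1.87 and 5 had ratios of 0.239 to 0.379. This ratio was formed after the levels were seen and was not tested. Some other genes and marker sums separated the same sets, and the share of all genes that did so was not counted. In the set of Kmo_AngII replicate 1 and the 3 WA libraries, the 4 platelet markers summed to 4.77 to 8.83 CPM, against 12.5 to 31.5 CPM in the other 5 libraries. The 4 neutrophil markers summed to 2.63 to 7.504 CPM in that set, against 15.6 to 253.7 CPM in the other 5. Acta1, skeletal muscle actin, had 617.2 to 685.9 CPM in that set, against 11.3 to 39.6 CPM in the other 5. Among the marker lists only the platelet and neutrophil sums separated the sets. The T and NK sum was highest of all 9 in Kmo_AngII replicate 1, at 5.59 CPM, against 0.191 to 1.23 CPM in WA. Macrophage and heart muscle sums overlapped between the sets. Within the platelet list, Gp1bb had at least 0.651 CPM in every Kmo_AngII library, against 0.357 CPM in the lowest WC library. Pf4 reached 5.46 CPM in WA, against 5.1 CPM in the lowest WC library. Red cell and atrial markers did not follow the division throughout. The 5 red cell markers summed to 2944 to 7318 CPM in WC, against 116.3 to 489.7 CPM in the other 6 libraries. Outside Kmo_AngII replicate 3, the sum of the 5 atrial markers was mostly Nppa, the natriuretic peptide gene. Nppa had 603.5 to 1222 CPM in WA, 48.0 to 113.7 CPM in WC, 1186 CPM in Kmo_AngII replicate 1, 121.1 CPM in replicate 2 and 1101 CPM in replicate 3. Of the other atrial markers, Bmp10 was at 0 in all WA libraries, and Sln was at 0 in AngII replicate 3 and Ctrl replicate 3, but at 35.04 CPM in Ctrl replicate 2 and 288.9 CPM in Kmo_AngII replicate 3. The part of these genes and cells in the Bambi and Smad3 levels was not tested.

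**Figure D2:**
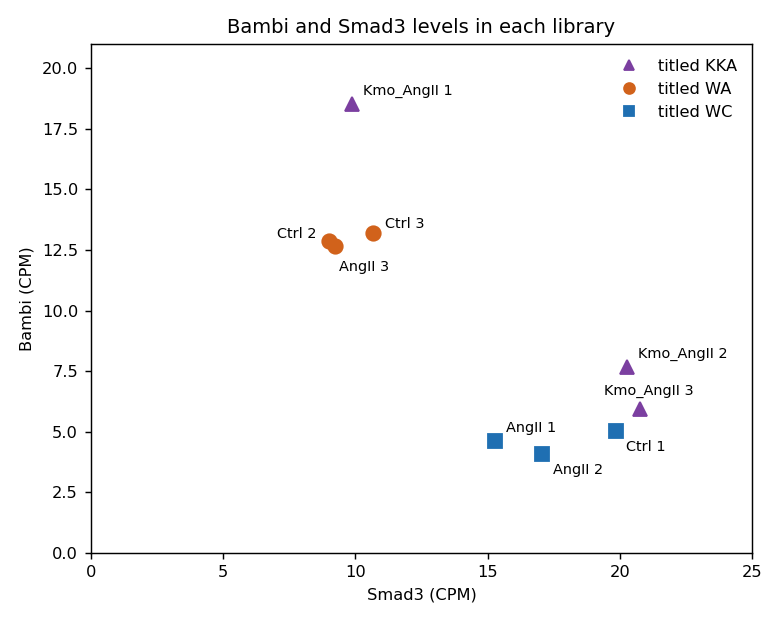
Bambi (vertical axis, CPM) against Smad3 (horizontal axis, CPM), 1 point per library, labelled by group and replicate, with colour and shape for the title letters. Kmo_AngII replicate 1 and the 3 WA libraries lie at 9.02 to 10.7 CPM of Smad3 and 12.7 to 18.5 CPM of Bambi, and the other 5 libraries lie at 15.3 to 20.8 and 4.07 to 7.69 CPM.

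The inhibitory Smads had negative differences for WA minus WC that did not pass the threshold. Smad6 had 7.27, 7.20 and 5.63 CPM in the WA libraries, against 13.1, 7.58 and 9.82 CPM in WC, and every WA library lay below every WC library, narrowly so for AngII replicate 2. Its log2 difference was -0.59 ± 0.23 in the 6 libraries (edgeR adjusted p = 0.114) and -0.60 ± 0.25 with all 9 (0.255). Smad7, a target of the pathway that feeds back on the receptors, had 16.9, 11.1 and 11.4 CPM in WA, against 21.1, 14.7 and 18.5 CPM in WC. These overlapped through AngII replicate 3, and the difference was -0.45 ± 0.21 in the 6 libraries (edgeR adjusted p = 0.19) and -0.46 ± 0.26 with all 9 (0.349). Without AngII replicate 3 the Smad7 difference was -0.67 and passed (edgeR adjusted p = 0.0498), as 4 of 9 members then did, beside 15.9% of all genes. Between treatment labels Smad7 averaged 17.6 ± 3.29 CPM in AngII and 13.7 ± 4.2 CPM in Ctrl (SD, n = 3 each; log2 difference 0.36 ± 0.28, edgeR adjusted p = 0.907). That difference was 0.21 when AngII replicate 1 was left out, and 0.65 and 0.23 when Ctrl replicates 1 and 2 were left out in turn. In Kmo_AngII Smad7 had 9.92, 16.7 and 12.9 CPM, a log2 difference of -0.42 ± 0.28 from AngII (edgeR adjusted p = 0.9998). Smad6 had 6.38, 8.47 and 8.54 CPM in Kmo_AngII, within the range of the other 6 libraries. The ratio of Smad6 to Smad7, as counts, lay between 0.429 and 0.665 in all 9 libraries. Endothelial markers, which mark cells known to express Smad6 and Smad7, summed over 6 genes to 728.7, 656.6 and 650.9 CPM in WA, against 778 to 839.3 CPM in WC, and their part was not tested.

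**Figure D3:**
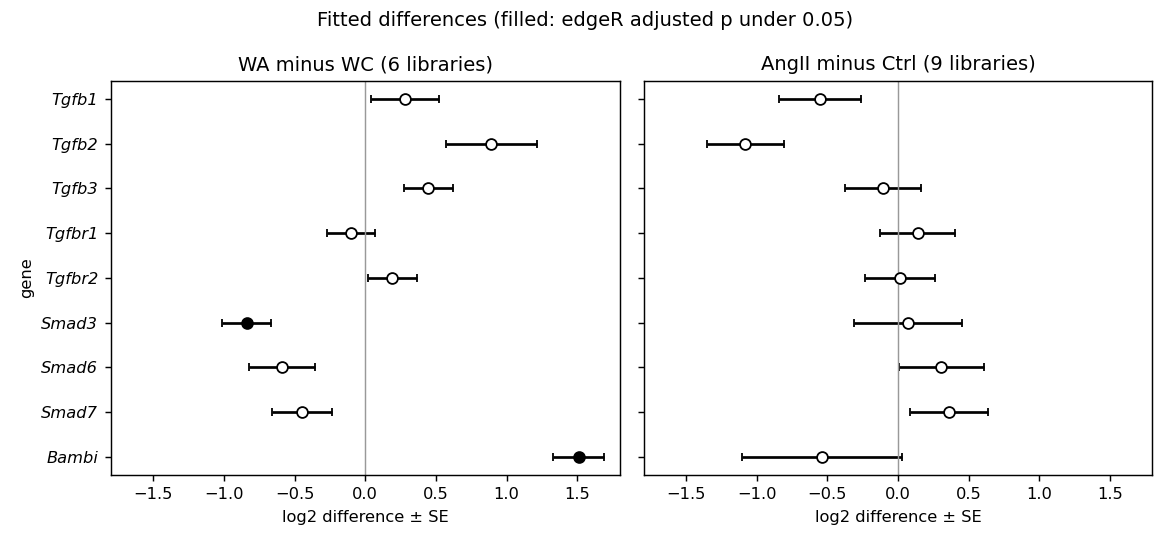
Fitted log2 difference with its SE for each gene (rows, from ligands to inhibitors) for WA minus WC in 6 libraries (left) and AngII minus Ctrl in 9 (right); filled points have an edgeR adjusted p under 0.05. Only Bambi (1.51) and Smad3 (-0.84) are filled, both on the left, and the largest difference on the right is that of Tgfb2 (-1.08).

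The other genes of the pathway were taken as 54 genes in 7 lists, all of which were tested. For AngII minus Ctrl edgeR called 0 of the 54, with 17 positive differences and a median of -0.12 (0.022 over all genes). For WA minus WC in the 6 libraries 13 of 54 passed, 11 higher (8.06% of all genes were called higher) and 2 lower (5.25%). Of 15 target genes, 6 rose and 0 fell in WA, but only 8 had positive differences (median 0.19). Without overlap between groups, 6 of the 15 lay above WC, beside 17.1% of all genes, and 3 lay below, beside 17.6%. Those 3 (Tgfbi, Lox and Id2, named after their values were seen) did not pass. Ccn2, a matricellular protein of fibrosis, had 66.1, 105 and 67.9 CPM in the WA libraries (AngII replicate 3, Ctrl replicates 2 and 3), against 27.4, 20.0 and 20.6 CPM in WC (AngII replicates 1 and 2, Ctrl replicate 1), with no overlap. Its log2 difference was 1.83 ± 0.22 (SE; edgeR adjusted p = 0.00223). Postn (periostin), a secreted matrix protein, rose by 1.84 ± 0.35 (edgeR adjusted p = 0.0139) and Pmepa1, an inhibitor that is itself a target, by 0.89 ± 0.18 (0.0104). Neither Postn nor Pmepa1 passed without AngII replicate 2 (edgeR adjusted p between 0.053 and 0.0743). Of the 15 targets, 1 passed without that library. The count of 13 of 54 became 3 without AngII replicate 2, 6 without Ctrl replicate 2, and 8 when either other Ctrl library was left out. The share called over all genes fell in the same fits. It went from 13.3% to 2.45% without AngII replicate 2 and to 6.67% without Ctrl replicate 2. Without Ctrl replicates 1 and 3 in turn it was 5.41% and 2.77%. Of the 6 fibroblast markers, 2 of which are also in the target list, 5 had positive differences and 2 rose, and their part in these counts was not tested.

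The lists below are small, and in this fit of 6 libraries 8.06% of all genes were called higher and 5.25% lower. In lists this small, single calls cannot be told apart from these shares. Among ligand storage and activation genes, 1 of 12 rose and 1 fell. Ltbp2, a matrix protein placed in this list by its family name only, averaged 6.67 CPM in WA and 1.27 CPM in WC (log2 difference 2.41 ± 0.34, edgeR adjusted p = 0.00336). Ltbp1, Ltbp3 and Ltbp4 of the same family did not pass. Nrros, which anchors latent TGF-beta on macrophages, averaged 5.62 CPM in WA and 10.5 CPM in WC and fell (-0.89 ± 0.20, edgeR adjusted p = 0.0163). The 6 macrophage markers summed to 75.0 to 98.1 CPM in WA and 95.9 to 119.1 CPM in WC. Of these, 2 had positive differences and 2 lay lower in WA without overlap, beside 17.6% of all genes. The latter were Csf1r (19.8 to 23.5 CPM in WA, 29.4 to 35.1 CPM in WC) and Mrc1 (10.7 to 15.3 and 17.8 to 20.4 CPM). Only Csf1r was called, and the part of these markers was not tested. Among 5 extracellular antagonists, Cilp (cartilage intermediate layer protein) rose by 2 ± 0.26 (edgeR adjusted p = 0.00242) and Fmod (fibromodulin) by 2.62 ± 0.58 (0.0174). Of 4 co-receptors Eng (endoglin), expressed by endothelium, fell, at 192 CPM in WA and 317 CPM in WC (-0.71 ± 0.19, edgeR adjusted p = 0.0313). Of 7 further Smads and adaptors Zfyve9, which presents Smads to the receptor, rose by 0.62 ± 0.18 (edgeR adjusted p = 0.0415). The ubiquitin ligase Wwp1, 1 of 7 ubiquitin enzymes, rose by 0.64 ± 0.18 (edgeR adjusted p = 0.0390). The calls of Zfyve9, Wwp1, Eng, Nrros and Fmod were each lost when 1 of several libraries was left out, whereas those of Ccn2, Cilp and Ltbp2 held in all 14 alternatives. None of 4 nuclear co-repressors passed, and Tgif2 had the smallest p (-0.74 ± 0.27, edgeR adjusted p = 0.0882). The sum of the 6 fibroblast markers, mostly Dcn, overlapped between WA (463.7 to 674.5 CPM) and WC (408.5 to 621 CPM), but Lum and Col1a2 did not: Lum had 29.4 to 35.1 CPM in WA, against 15.2 to 24.98 CPM in WC, and Col1a2 had 69.9 to 99.6 CPM in WA, against 37.2 to 61.4 CPM in WC. In the KKA libraries Ccn2 had 117.1, 20.9 and 64.1 CPM and Postn 40.4, 7.69 and 74.5 CPM. Kmo_AngII replicate 2 lay within the WC range for Ccn2 and below every WC library for Postn (lowest 10.6 CPM). Kmo_AngII replicate 3 lay above every WC library for Ccn2 (highest 27.4 CPM) and Postn (highest 22.1 CPM), although its Bambi and Smad3 levels lay on the WC side. EdgeR called 0 of the 54 genes in any comparison of the 9 libraries.

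**Figure D4:**
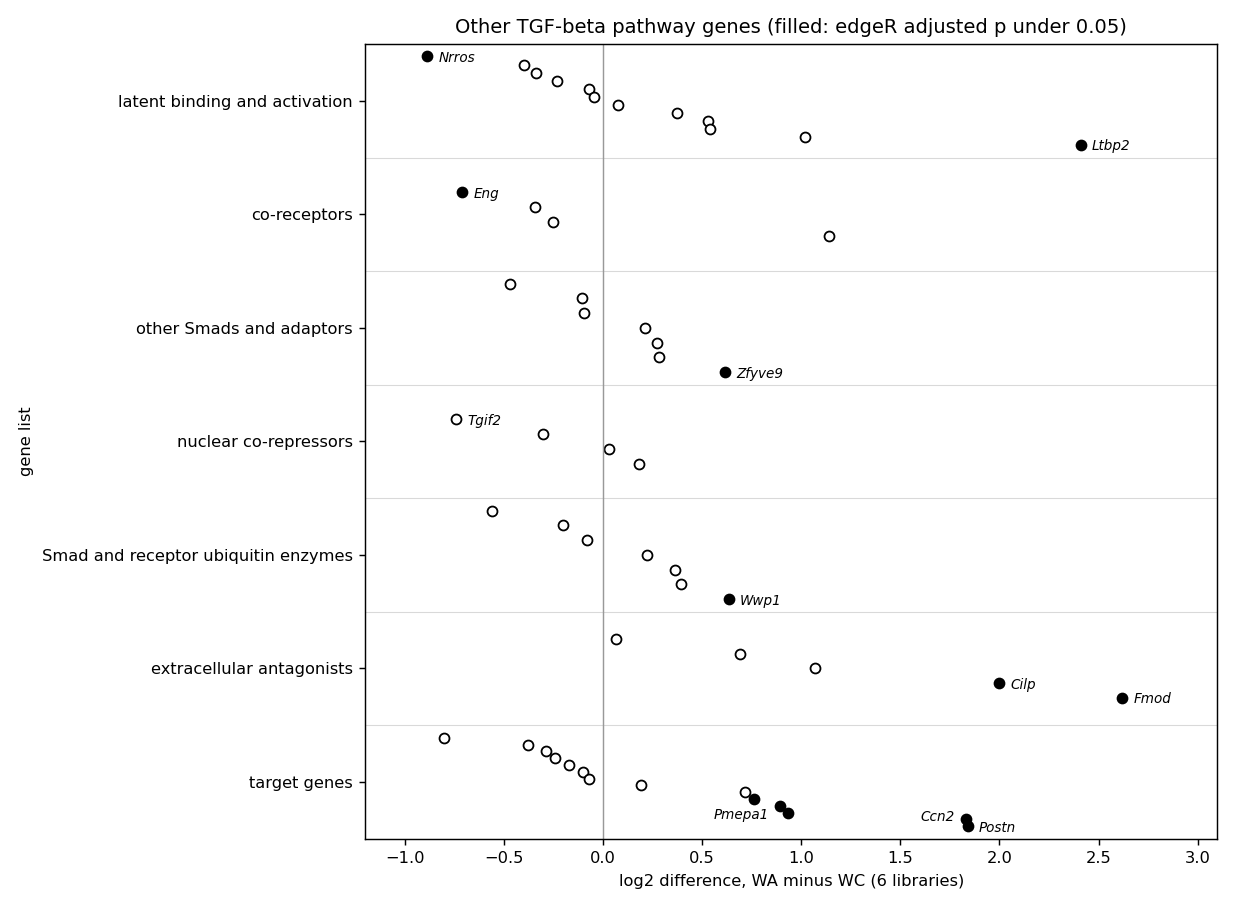
Log2 difference for WA minus WC in the 6 libraries (horizontal axis) of the other pathway genes apart from 1 target gene that is not shown, 1 point per gene, in rows by list; filled points have an edgeR adjusted p under 0.05 and named points are those in the text. In the target list all filled points lie right of 0, with Ccn2 at 1.83 and Postn at 1.84.

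For the 3 members with the widest range, the genes with the most similar pattern over the 9 libraries were sought among 11060 tested genes, by the root mean square difference of log2 CPM centred on each gene's mean. Closest to Bambi were Glrx (0.20), Pfn2 (0.23) and Slc35f5 (0.24), where the median over all candidates was 0.79. Closest to Tgfb2 were Maob (0.18), Slc10a3 (0.20) and Fhl1 (0.22), with a median of 0.67. Closest to Tgfb1 were Tbl1x (0.12), Sec31a (0.12) and Ddx19a (0.13), with a median of 0.53. These values describe the 9 libraries, which share the division by title letters.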

How the data were processed

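The authors deposited whole-number counts for 55401 Ensembl genes in 9 libraries, not scaled for depth or length, per the file headers. Build mm8 and the tools StringTie 1.3.0, HISAT2 2.0 and Bowtie 0.12.2 are named, without roles, per the submitters' processing notes. The counting step, annotation and use of strand were not stated there, so reads of overlapping genes on opposite strands cannot be separated. Gene models overlapping Tgfb2 and Tgfb3 exons had at most 12 counts in a library; Ttll5, opposite Tgfb3, shares no exon bases. Symbols matched 55141 gene IDs. The members and lists were chosen with earlier results of these data known.

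Differences were tested with edgeR 4.0.16 (quasi-likelihood F test, robust, TMM, filterByExpr, Benjamini-Hochberg over all genes tested, threshold 0.05) in R 4.3.3, for treatment labels and title letters, each with 9 libraries, and for WA and WC alone with 6. Each SE came from the fitted difference and the F value and adds nothing to the p. Replicate numbers follow sample order. No pair of libraries was alike within sampling noise (chi-square over degrees of freedom at least 56.6). Log2 CPM used a prior count of 2. Levels were given for all members, and log2 differences for all members in WA minus WC and for the 3 with the smallest p elsewhere. Of each wider list up to 4 called genes were named, or the gene with the smallest p. The values of 1 target gene are not reported here. Alternatives were other scalings, filters, DESeq2 1.42.0, limma-voom (limma 3.58.1), fewer groups, covariates, leaving out mitochondrial and haemoglobin genes, and leaving out each library. The fits were also run on simulated counts with changes put in. Those counts left out the differences in TMM factor between libraries and, for treatment labels, the division by title letters. They therefore do not bear on the effect of either.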

Additional observations from a re-analysis of the deposited data

How the results depend on the processing

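The number of members called stayed at 0 under every alternative for AngII minus Ctrl, Kmo_AngII minus AngII, Kmo_AngII minus Ctrl and KKA minus WC. For KKA minus WA it ranged from 0 to 2 when single libraries were left out. For WA minus WC with 9 libraries, where the count was 0, it was 1 with DESeq2, 2 with only those groups fitted and 0 to 2 when single libraries were left out. In the 6 libraries, where it was 2, it was 3 with DESeq2, 0 with scaling by library size alone and 1 to 4 when single libraries were left out. Over all genes, edgeR called 0 in each comparison of 9 libraries, where DESeq2 called 8 (AngII minus Ctrl), 3 (Kmo_AngII minus AngII), 9 (Kmo_AngII minus Ctrl), 514 (WA minus WC), 91 (KKA minus WA) and 25 (KKA minus WC). Without Kmo_AngII replicate 1, edgeR called 1576 for WA minus WC and 1709 for KKA minus WA. WA minus WC called 2409 in the 6 libraries with edgeR, and 3437 (19%) with DESeq2. The edgeR count of 2409 was 232 with scaling by library size alone and 459 to 2980 when single libraries were left out. The wider pathway count of 13 was then 6, and 3 to 15. Scaling by library size alone shifted the median of all genes by up to 0.67 and turned the direction of Tgfb1 in AngII minus Ctrl (0.097) and in WA minus WC (-0.063 in both fits), and of Tgfbr2 in WA minus WC (-0.154 in both fits). It also turned Tgfb3 (0.543) and Bambi (0.147) in AngII minus Ctrl, Tgfbr2 (-0.05) and Smad3 (-0.08) in Kmo_AngII minus AngII, Tgfb1 (0.109), Tgfb2 (0.315) and Smad7 (0.24) in Kmo_AngII minus Ctrl, and Tgfb1 (0.0914) in KKA minus WA. Relative to the median of all genes under that scaling, each of the differences it turned kept its direction. Leaving out single libraries took Tgfbr1 in WA minus WC of 6 libraries to between -0.175 and 0.013, and Tgfbr2 in KKA minus WA to between -0.0053 and 0.384. The cause of these changes was not tested. The Bambi, Ccn2, Cilp and Ltbp2 differences kept their direction in all alternatives of the 6 libraries. No paired analysis was possible because the labels give no replicate numbers shared between groups. Every member had 274 or more counts in each library, and the share of depth in the spread was not tested.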
